A study of Mus musculus with 24 samples.

Results

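The late course of serum refeeding was examined in embryonic fibroblasts of the mouse (MEF), which are connective tissue cells cultured from embryos, by setting the arrays at 28 and 30 h against those at 20 and 22 h. These 4 arrays of 24 in all formed 2 windows of 2 arrays each, the late window (28-30 h) and the earlier window (20-22 h). They were chosen by their time labels, apart from the omission of the 26 h array described below. All 4 came from early passage MEF that were held in low serum for 48 h and then given medium with 10% serum. The low serum was 0.5% by the sample protocol but 0.1% by the description of the series. The other arrays covered starved cells (0 h), the remaining times up to 30 h and unsynchronised MEF, which grew without starvation. The labels place all 4 arrays in late proliferation. No window has a repeat of the same hour, so its 2 arrays differ in time, and nothing in the sources says whether they came from separate cultures. The 26 h array was left out of both windows, because it lay apart from its neighbours. That omission rested on its values and not on its label.

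Fibroblasts deprived of serum leave the cell cycle for quiescence, and serum returns them to it through a burst of immediate early genes, G1, DNA replication (S phase) and mitosis. Genes of S phase are largely controlled by E2F factors, which bind sites close to their promoters, and genes of G2 and mitosis largely by the MuvB complex with B-Myb and Foxm1, which acts through a short promoter element called CHR, often together with CCAAT boxes. Because such cultures are only partly synchronous and drift apart with time, RNA of a late culture is a mixture of cells at different stages. Each array measured RNA of a whole culture, so that fewer cells in a stage and less RNA per cell cannot be told apart.

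Expression was available as linear intensities for 9970 genes, after a minimum of 20 in at least 2 arrays. Log2 intensities correlated at r = 0.990 between 28 and 30 h and at 0.992 between 20 and 22 h. Pairs of the same hour or of unsynchronised cells ran from 0.985 (0 h) to 0.991 (18 h). The late pair lay within that range and the earlier pair slightly above it. The 26 h array correlated at 0.964 to 0.980 with the other 23, which include starved cells and distant hours. Its median correlation with them was 0.9749, against 0.9860 and 0.9872 for the 24 h arrays and 0.9862 for the 28 h array. The first 0 h array (0.9754) and the 4 h array (0.9758) had medians nearly as low. Fibroblast markers were present, with all 11 measured and summed intensities of 16855 and 15692 at 28 and 30 h against 16148 and 16241 at 20 and 22 h. The endothelial (6) and epithelial (5) markers on the array were below 20 in all 4 arrays. Of 14 macrophage and leukocyte markers, 12 passed the minimum over all arrays, and 3 (Ptprc, Laptm5 and Aif1) were below 20 in all 4 arrays. The 14 summed to 1581 and 1387 in the late window against 1448 and 1499 in the earlier one. Of 6 neural markers, Sox2, Map2, Gfap and Sox10 were below 20 in all 4 arrays. The neural markers summed to 202 and 183 in the late window against 257 and 231 in the earlier one, and the 3 that passed the minimum over all arrays lay lower in both late arrays (median −0.33, 2 at an unadjusted p under 0.05). The part of these markers in the results was not tested.

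Promoters of 5 genes are shown because the results turn on S phase and mitotic genes, whose promoters are known for E2F and CHR elements. They are RefSeq windows (GRCm38.p6) from 250 bases upstream to 50 bases downstream of the start site, printed 5′ to 3′ on the strand of the gene. Capitals mark the E2F motif TTTNNCGC, on either strand, in Clspn (claspin, a replication checkpoint mediator, chr4:126556730-126557029, plus strand) and Rbl1 (the pocket protein p107, which binds E2F, chr2:157204485-157204784, minus strand). Capitals mark the CHR motif TTTGAA, on either strand, in Cdk1 (the kinase that drives mitotic entry, chr10:69352863-69353162, minus strand), Cdca8 (borealin, of the chromosomal passenger complex, chr4:124936868-124937167, minus strand) and Ccnb2 (cyclin B2, chr9:70421505-70421804, minus strand).
Clspn: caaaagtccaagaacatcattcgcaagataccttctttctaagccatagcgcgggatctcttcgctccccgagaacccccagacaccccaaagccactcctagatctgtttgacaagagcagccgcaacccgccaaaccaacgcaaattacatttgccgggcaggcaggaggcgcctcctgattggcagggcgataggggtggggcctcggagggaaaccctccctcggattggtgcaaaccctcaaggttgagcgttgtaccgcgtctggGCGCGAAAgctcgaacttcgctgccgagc
Rbl1: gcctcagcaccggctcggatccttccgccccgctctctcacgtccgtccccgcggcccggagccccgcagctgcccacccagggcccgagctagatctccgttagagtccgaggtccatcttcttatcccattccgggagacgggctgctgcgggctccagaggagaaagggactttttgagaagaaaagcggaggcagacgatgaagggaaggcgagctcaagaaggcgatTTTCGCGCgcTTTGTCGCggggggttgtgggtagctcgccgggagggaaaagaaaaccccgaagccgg
Cdk1: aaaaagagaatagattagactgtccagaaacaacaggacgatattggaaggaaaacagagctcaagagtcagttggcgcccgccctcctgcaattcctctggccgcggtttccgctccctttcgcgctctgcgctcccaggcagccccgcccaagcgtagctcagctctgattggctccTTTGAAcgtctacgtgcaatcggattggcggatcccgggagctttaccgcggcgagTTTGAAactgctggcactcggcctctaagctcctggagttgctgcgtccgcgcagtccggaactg
Cdca8: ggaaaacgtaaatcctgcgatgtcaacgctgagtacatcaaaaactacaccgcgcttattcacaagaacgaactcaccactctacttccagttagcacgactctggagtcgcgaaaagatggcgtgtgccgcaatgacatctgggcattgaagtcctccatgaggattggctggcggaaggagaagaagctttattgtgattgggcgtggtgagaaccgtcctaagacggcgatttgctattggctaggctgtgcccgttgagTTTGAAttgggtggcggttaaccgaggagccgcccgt
Ccnb2: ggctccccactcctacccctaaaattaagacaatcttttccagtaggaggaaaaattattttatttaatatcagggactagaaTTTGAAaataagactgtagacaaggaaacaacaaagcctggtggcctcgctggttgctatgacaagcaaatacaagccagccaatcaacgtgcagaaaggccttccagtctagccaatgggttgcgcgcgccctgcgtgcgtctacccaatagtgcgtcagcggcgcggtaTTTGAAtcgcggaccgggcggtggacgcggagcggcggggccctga
The E2F motif of Clspn began 22 bases downstream of the start site, and those of Rbl1 began 18 and 8 bases upstream. The CHR motifs began 71 and 15 bases upstream in Cdk1, 14 bases downstream in Cdca8, and 167 bases upstream and 5 bases downstream in Ccnb2. The window of Cdk1 also holds 2 E2F motifs, left in lower case, which began 131 and 29 bases upstream, so it carries both elements. The E2F motif was found in 44.7% of 38 genes of the DNA replication list and 55.6% of 18 genes of the E2F and G1/S list, against 10.3% of 7935 genes tested (8.58% of their 10077 windows). Among 89 genes of 5 mitotic lists it was found in 13.5%. The CHR motif was found in 52.8% of these mitotic genes and 18.4% of the replication genes, against 13.7% of all genes (11.7% of windows). CCAAT, searched on both strands, was found in 65.2% of the mitotic genes and in 42.5% of all genes (37.2% of windows). Of the 9970 genes, 7935 had a window. These matches describe letters in a window and were not tested.

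Between the windows, genes of DNA replication, histone supply and mitosis lay lower at 28-30 h, immediate early genes and ribosome biogenesis genes also lay lower, and genes of cholesterol synthesis, quiescence and the lysosome lay slightly higher. No single gene passed the threshold: limma called 0 of 9970 genes higher (0%) and 0 lower (0%) at an adjusted p under 0.05. Without adjustment, 828 genes (8.3%) had p under 0.05, of which 285 (2.86%) were higher and 543 (5.45%) lower. Both late arrays lay below both earlier arrays in 2351 genes (23.6%) and above them in 1847 (18.5%). Leaving out 1 array gave 3 lower genes without 28 h (Rabggtb, Snora44 and Snord13), 1 lower without 30 h (H2ac21), 0 without 20 h, and 1 higher (Steap4) and 3 lower (Dusp5, Egr1 and Hbegf) without 22 h. The difference was below 0 in 5197 genes (52.1%) and above 0 in 4773 (47.9%), with a median of −0.01 on the log2 scale. With 2 arrays a window the median 95% interval reached 0.34 log2 to either side. In data simulated for this comparison, 13 of 50 genes changed by 0.5 log2 and 39 of 50 changed by 1 log2 were recovered. That simulation also held 50 genes changed by 1.5 log2 and 50 by 2 log2, which eases the adjusted threshold for smaller changes. Recovery in the real data may therefore be lower, and 0 calls do not show that few genes changed. A list of genes is therefore described below by its counts and its median, to be read beside the all-gene values given here. For members lower or higher in both late arrays these are 23.6% and 18.5%. For an unadjusted p under 0.05 they are 5.45% lower and 2.86% higher, and a count near such a share is no trait of its list.

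**Figure D1:**
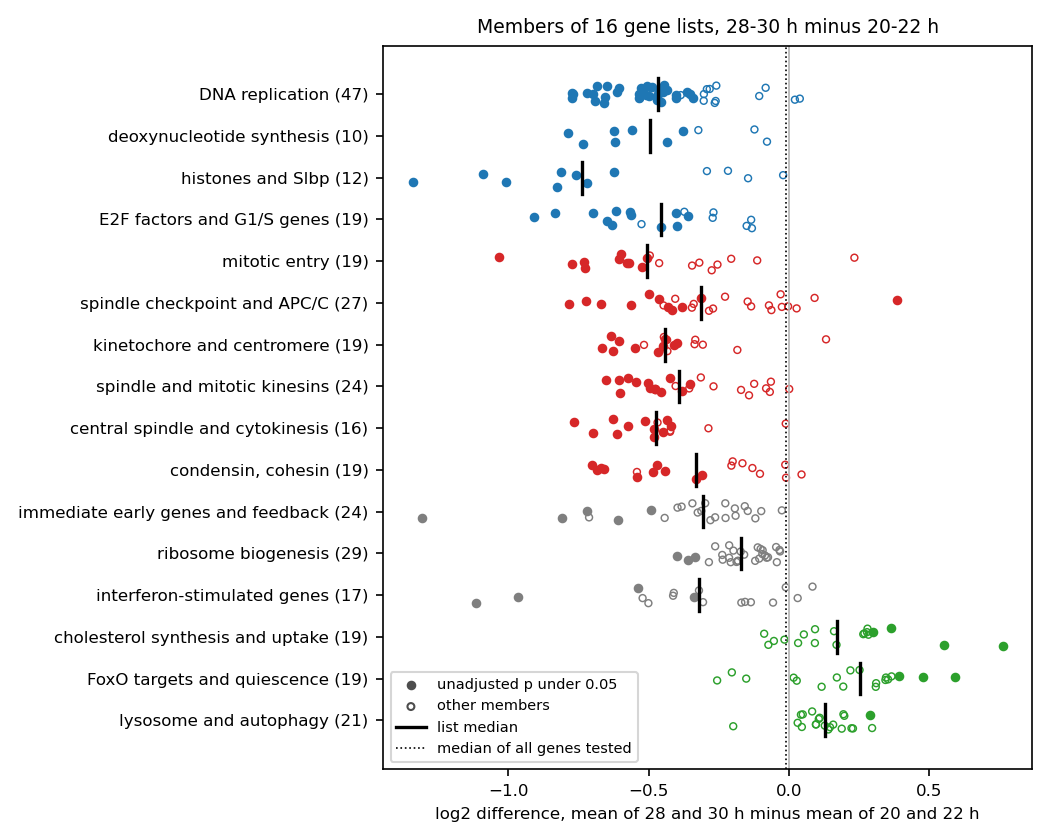
Log2 difference of the late window (mean of 28 and 30 h) minus the earlier window (mean of 20 and 22 h) for each measured member of 16 gene lists, with the number measured in brackets. Filled points have an unadjusted p under 0.05, thick bars are list medians and the dotted line is the median of all 9970 genes (−0.01). Medians of the S phase lists (blue) and mitotic lists (red) run from −0.74 to −0.31, and those of the 3 lists in green from 0.13 to 0.25.

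The S phase genes lay lower in the late window with few exceptions. Of 47 measured DNA replication genes, 43 were lower in both late arrays than in both earlier arrays, 33 had an unadjusted p under 0.05, all of them lower, and none was higher in both. Their median difference was −0.47. Fen1, the nuclease that trims Okazaki fragments, had intensities of 44.4 and 33.2 at 28 and 30 h against 63.8 and 67.1 at 20 and 22 h, a difference of −0.77 ± 0.17 (log2 ± SE, limma adjusted p = 0.187). Clspn had 45.3 and 50.2 in the late window against 90.2 and 68.2 in the earlier one (−0.72 ± 0.20, limma adjusted p = 0.243). For both genes the windows did not overlap. Genes named from a list, here and below, were mainly those with its largest differences in this comparison, besides a panel of cell cycle genes. Their differences and lack of overlap are therefore those of extreme members, not of a typical one. Mcm5, a subunit of the replicative helicase, had 197 and 199.6 against 319 and 302, and the origin licensing factor Cdc6 had 52.99 and 64.7 against 104 and 82.0 (late window against earlier window in each case; both were picked after their values were seen). Geminin (Gmnn), the inhibitor of licensing, lay lower as well, at 20.0 and 13.1 in the late window against 32.3 and 23.7 in the earlier one. These values lay near the minimum of 20, with that at 30 h below it (limma adjusted p = 0.423).

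Enzymes that make deoxynucleotides lay lower beside the replication genes: all 10 measured members lay lower, 8 of them in both late arrays, 7 had an unadjusted p under 0.05, and the median was −0.50. Thymidine kinase Tk1 had 143 and 164 at 28 and 30 h against 262 and 267 at 20 and 22 h (−0.79 ± 0.16, limma adjusted p = 0.140). Rrm2, the small subunit of ribonucleotide reductase, had 324 and 366 in the late window against 559.8 and 499 in the earlier one. Both enzymes were lower in each late array than in either earlier array. In the E2F and G1/S list all 19 measured members lay lower, 18 of them in both late arrays, with 12 at an unadjusted p under 0.05 and a median of −0.46. Chaf1b, a subunit of the chromatin assembly factor that loads histones on new DNA, had 123 and 126 in the late window against 262 and 188 in the earlier one (−0.84 ± 0.16, limma adjusted p = 0.125). The repair gene Brca1 had 24.9 and 29.1 against 55.8 and 45.8 (−0.91 ± 0.19, limma adjusted p = 0.154). Cyclin E1 (Ccne1), the partner of Cdk2 at the G1/S transition, had 164 and 161 in the late window against 285 and 219 in the earlier one. In Rbl1, whose promoter is printed above with 2 E2F motifs, the late arrays had 85.7 and 90.1 against 157 and 130.1 in the earlier ones. The phosphatase gene Cdc25a lay closer, at 99.6 and 125 in the late window against 146 and 141 in the earlier one (−0.36 ± 0.16, limma adjusted p = 0.576).

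Histone genes had the lowest median of all lists described here with the minimum intensity applied, but not without it. Replication-dependent histones are transcribed during DNA synthesis and their mRNA lacks a poly(A) tail. Of 63 listed histone genes and processing factors, 12 were measured, all 12 lay lower, 10 of them in both late arrays, 8 had an unadjusted p under 0.05, and the median was −0.74. H2ac21 had 20.7 and 27.8 at 28 and 30 h against 56.2 and 46.4 at 20 and 22 h (−1.09 ± 0.15), and at a limma adjusted p of 0.0590 it was 1 of 3 genes tied closest to the threshold. The linker histone gene H1f5 had 74.2 and 76.2 in the late window against 217 and 167 in the earlier one (−1.34 ± 0.27, limma adjusted p = 0.140). H2ac10 had 479.9 and 710.1 against 1122 and 957 (−0.83 ± 0.17, limma adjusted p = 0.152). The late arrays lay below both earlier arrays in all 3 genes, although the 28 and 30 h values of H2ac10 were far apart. Without a minimum intensity, 26 of the listed genes were measured and their median was −0.36, while that of the mitotic entry list was −0.51. Histone genes are near-identical copies, so their probe sets may share signal.

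Mitotic genes lay lower by a similar amount, but with exceptions. The median was −0.51 in the mitotic entry list, where 17 of 19 members were lower in both late arrays and 10 had an unadjusted p under 0.05. Mybl2 (B-Myb), which activates G2 genes with MuvB, had the largest difference, with 53.3 and 58.0 at 28 and 30 h against 118 and 109.7 at 20 and 22 h (−1.03 ± 0.24, limma adjusted p = 0.190). Aurora kinase B (Aurkb) had 175 and 208 in the late window against 322 and 309.5 in the earlier one (−0.73 ± 0.18, limma adjusted p = 0.224). Cdk1 itself had 262 and 258 against 366 and 382 (−0.53 ± 0.13, limma adjusted p = 0.225). Cyclin A2 (Ccna2) had 337 and 409 in the late window against 548 and 561 in the earlier one. In these 4 genes the windows were well apart relative to the difference within each.

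The B cyclins lay closer together in the 2 windows. Ccnb1 had 254 and 223 at 28 and 30 h against 272 and 297 at 20 and 22 h, a difference of −0.26 with a 95% interval of −0.58 to 0.07. Ccnb2 had 252 and 382 in the late window against 245 and 285 in the earlier one, so that the windows overlapped (0.23, 95% interval −0.30 to 0.76, limma adjusted p = 0.912), and without the 30 h array its difference was −0.066. Ccnb2 and Cdk1 each have 2 CHR motifs in the promoters printed above. Whether the difference of Ccnb2 itself departs from that of Cdk1 was not tested.

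Genes of the kinetochore, spindle, cytokinesis, chromosome structure and spindle checkpoint lay lower as well. In the kinetochore and centromere list 18 of 19 members were lower in both late arrays (median −0.44), in the spindle and kinesin list 20 of 24 (median −0.39), in the central spindle and cytokinesis list 15 of 16 (median −0.47), and in the condensin and cohesin list 16 of 19 (median −0.33). The spindle checkpoint and anaphase-promoting complex list was the most mixed, with 18 of 27 lower and 2 higher in both late arrays and a median of −0.31. Unadjusted p was under 0.05 for 10, 13, 11, 10 and 10 lower members of these 5 lists, and for 1 higher member of the last. Cdca8 had 51.8 and 58.2 at 28 and 30 h against 86.9 and 100.2 at 20 and 22 h (−0.76 ± 0.15, limma adjusted p = 0.125). Separase (Espl1), the protease that cuts cohesin at anaphase, had 30.5 and 27.2 in the late window against 49.0 and 50 in the earlier one (−0.78 ± 0.18, limma adjusted p = 0.209). The motor Kif11, which separates spindle poles, had 219 and 203 against 333 and 328 (−0.65 ± 0.21, limma adjusted p = 0.366). Topoisomerase II alpha (Top2a) had 318 and 262 in the late window against 485 and 429 in the earlier one, with no overlap in any of these 4 genes. The proliferation marker Mki67 had 544 and 419 in the late window against 763 and 632 in the earlier one, but its 95% interval of −1.13 to 0.05 included 0.

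**Figure D2:**
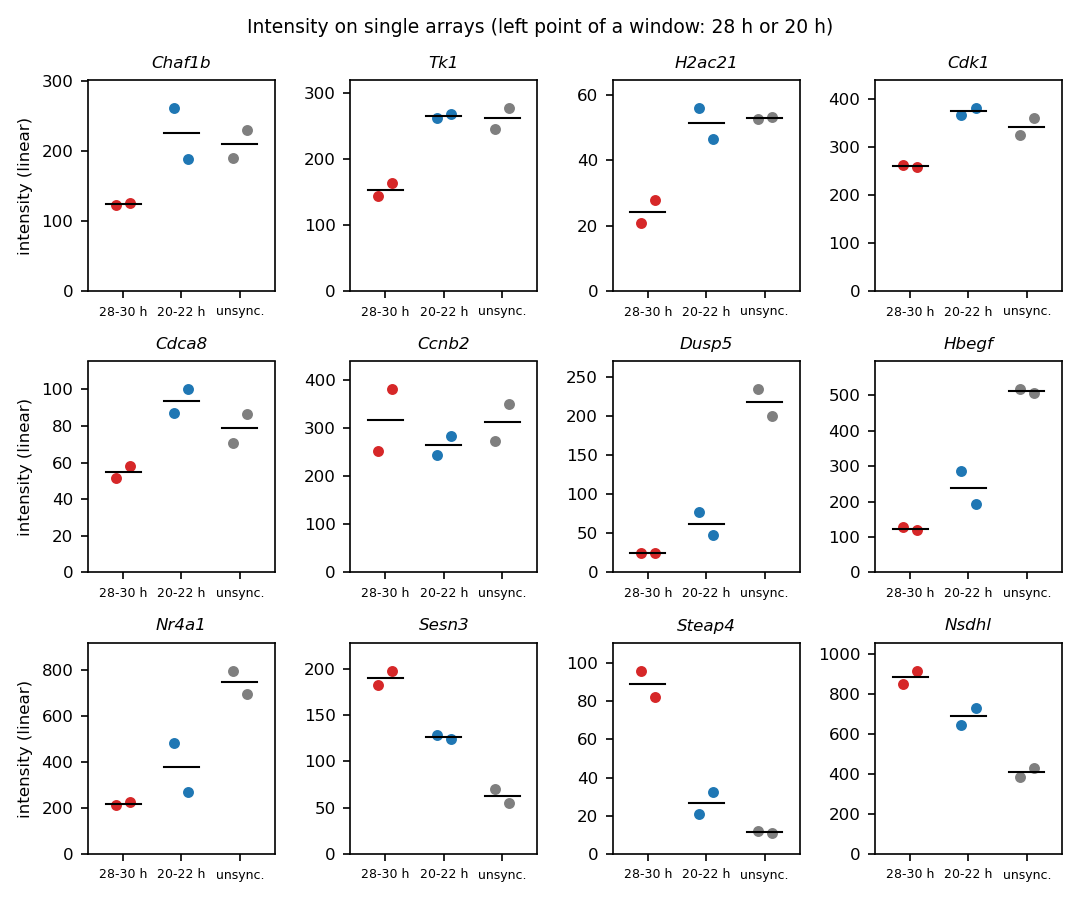
Linear intensity on single arrays of 12 genes in the late window (28 and 30 h, red), the earlier window (20 and 22 h, blue) and unsynchronised cells (grey), with black lines at the mean of 2 arrays and each vertical axis starting at 0. Chaf1b, Tk1, H2ac21, Cdk1, Cdca8, Dusp5, Hbegf and Nr4a1 lie lower in both late arrays than in both earlier arrays, Sesn3, Steap4 and Nsdhl lie higher, and Ccnb2 overlaps.

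The 2 arrays at 24 h belong to neither window. Set against the mean of 20 and 22 h, the replication genes stood at −0.12 and −0.32 in the 2 arrays at 24 h, at −0.48 at 28 h and at −0.42 at 30 h. The histone genes were already at −0.45 and −0.41 at 24 h, at −0.76 at 28 h and at −0.58 at 30 h. The spindle and kinesin genes were at 0.11 and −0.21 in the 24 h arrays, at −0.38 at 28 h and at −0.37 at 30 h. Central spindle and cytokinesis genes were likewise at 0.10 and −0.26 at 24 h, at −0.50 at 28 h and at −0.53 at 30 h. The mitotic entry genes were at −0.022 and −0.27 in the 24 h arrays, and the condensin and cohesin genes at −0.0030 and −0.24. The second 24 h array thus lay lower than the first in all 4 of these mitotic lists and in the replication list, but not in the histone list. Whether the lists differ in timing was not tested. Immediate early genes were at 0.12 and 0.23 at 24 h, at −0.39 at 28 h and at −0.22 at 30 h. Gene by gene, limma called 0 of 9970 genes higher (0%) and 0 lower (0%) at 24 h against 20-22 h, with 338 genes (3.39%) at an unadjusted p under 0.05, and likewise 0 in each direction (0%) at 28-30 h against 24 h, with 429 (4.3%). These 2 comparisons were added after the data were seen.

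**Figure D3:**
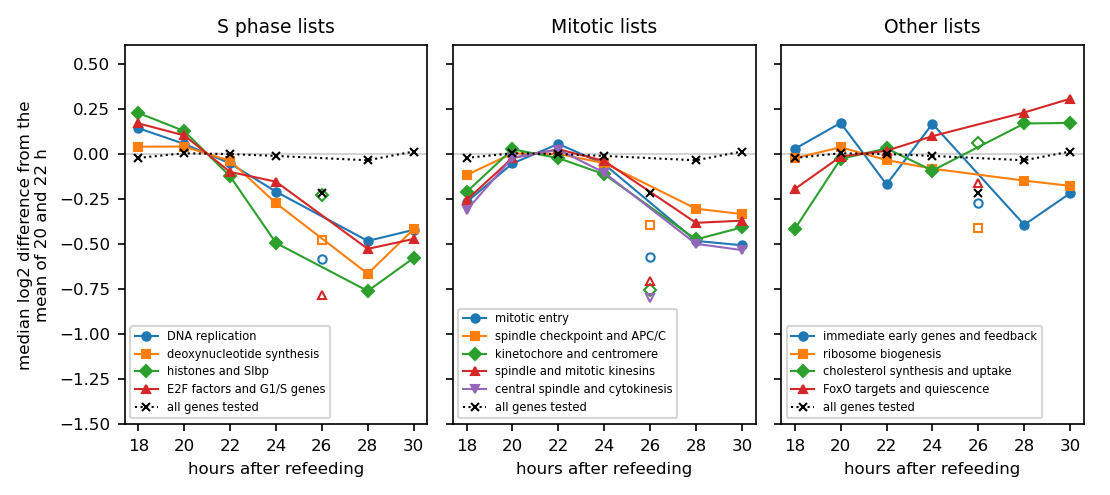
Median log2 difference of gene lists from the mean of 20 and 22 h (vertical axis) at 18 to 30 h after refeeding (horizontal axis), with 2 arrays averaged at 18 and 24 h and 1 array at other times. Open symbols show the 26 h array, which is not joined by lines and whose median over all genes (crosses) is −0.22. Histone genes are at −0.50 at 24 h while the mitotic lists are between −0.11 and −0.04. The 2 arrays are averaged for each gene before the median is taken. The plotted value can therefore lie outside the medians of the single arrays, which for histone genes are −0.45 and −0.41.

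Set against the duplicate arrays at 18 h, a comparison also added later, 191 genes were higher (1.92%) and 254 lower (2.55%) in the late window by limma. The lower genes took in 22 of 47 replication genes, 8 of 12 histone genes and 9 of 19 genes of the E2F and G1/S list and 2 of 19 in the mitotic entry list, and whether the lists differ in this was not tested. These totals rest on few arrays and came to between 13 and 97 when 1 of the 4 arrays was left out (13 without the second 18 h array, 48 without the 30 h array, 82 without the first 18 h array and 97 without the 28 h array). Relative to 18 h, Mybl2 fell by 1.52 log2 (limma adjusted p = 0.0071), Chaf1b fell by 1.14 (0.0050) and Mcm5 fell by 1.02 (0.0071). Relative to starved cells, 1609 genes were higher (16.1%) and 1341 lower (13.5%) in the late window, among them 33 of 47 replication genes and 19 of 19 mitotic entry genes, all higher. In the earlier window 1974 genes were higher (19.8%) and 1584 lower (15.9%) than at 0 h, among them 42 of 47 replication genes, again all higher. Both comparisons with 0 h were added later and share the 0 h arrays.

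Serum-induced signalling genes lay lower in the late window as well. All 24 measured immediate early and feedback genes had a negative difference, 13 of them were lower in both late arrays, 5 had an unadjusted p under 0.05, and the median was −0.31 (−0.15 without 20 h and −0.53 without 22 h). Dusp5, a nuclear phosphatase that switches off ERK, had 24.7 and 24.3 at 28 and 30 h against 76.9 and 47.7 at 20 and 22 h (−1.31 ± 0.20, limma adjusted p = 0.0590). Hbegf, a ligand of the EGF receptor, had 127 and 119 in the late window against 286 and 194 in the earlier one (−0.94 ± 0.17, limma adjusted p = 0.125). The orphan receptor gene Nr4a1 had 214 and 225 against 485 and 269 (−0.72 ± 0.22, limma adjusted p = 0.340). Of the 4 arrays the 20 h array was highest for all 3 genes, and their late arrays lay close together. Egr1 was uneven in the earlier window, with 85.8 and 77.7 in the late window against 248 and 72.1 in the earlier one: it was the only gene called lower at 22 h than at 20 h (1 of 9970 lower, 0.01%, −1.78 log2, limma adjusted p = 0.0320, and 0 higher, with 129 genes, 1.29%, at an unadjusted p under 0.05). Each of these hours has 1 array, so the call has no replicate check at either hour and takes its spread from the groups with 2 arrays. Without the 20 h array its late difference was 0.18, and without the 22 h array it was −1.60. Myc, a driver of growth, had 158 and 249.7 in the late window against 297 and 240.0 in the earlier one, which overlapped. Within the late window, limma called 2 genes lower at 30 h than at 28 h (0.0201%), Rabggtb and Snord13, and 0 higher (0%), with 406 genes (4.07%) at an unadjusted p under 0.05, and this too sets single arrays against each other with the spread of other groups.

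Among other lists with lower medians, all 29 measured ribosome biogenesis genes had negative differences, 19 of them in both late arrays, with a median of −0.17. Of these, 3 had an unadjusted p under 0.05, beside 5.45% of all genes that were lower at that p. Nop2, a methyltransferase of the large ribosomal RNA, had 385 and 377 in the late window against 493 and 513 in the earlier one. Of 17 interferon-stimulated genes, 11 were lower in both late arrays, 4 had an unadjusted p under 0.05, and the median was −0.32. Ifi44 had 71.0 and 54.4 at 28 and 30 h against 142 and 127 at 20 and 22 h. The 2 arrays at 24 h differed for it, at 54.6 and 98.1, and the list stood at −0.51 and −0.01 there. In the list of SRF, MRTF and YAP targets 6 of 17 were lower and 1 higher in both late arrays, with a median of −0.16. Over all genes these shares were 23.6% and 18.5%.

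Among the lists plotted, those of cholesterol synthesis, quiescence and the lysosome lay higher, with medians of 0.17, 0.25 and 0.13. The glycolysis and hypoxia list, which was not plotted, also had a median of 0.13 over 19 genes, with 6 higher and 3 lower in both late arrays. Of 19 genes of cholesterol synthesis and uptake, 11 were higher in both late arrays, none was lower in both, 4 had an unadjusted p under 0.05, and the median was 0.17. Nsdhl, a late enzyme of the pathway, had 849 and 918 at 28 and 30 h against 646 and 731 at 20 and 22 h (0.36 ± 0.14, limma adjusted p = 0.443). Pmvk, which phosphorylates mevalonate phosphate, had 148 and 158 in the late window against 86.6 and 126 in the earlier one. In the FoxO and quiescence list 12 of 19 were higher in both late arrays, with a median of 0.25 and 3 at an unadjusted p under 0.05. Sesn3, a FoxO target that restrains mTORC1, had 183 and 198 against 128 and 125 (0.59 ± 0.14, limma adjusted p = 0.209). Tob1, an antiproliferative regulator of mRNA decay, had 159 and 199 in the late window against 130.4 and 125 in the earlier one. Of 21 lysosome and autophagy genes, 14 were higher and 1 lower in both late arrays, with a median of 0.13. Only 1 had an unadjusted p under 0.05, beside 2.86% of all genes that were higher at that p. At 28 and 30 h the medians relative to 20-22 h were 0.17 and 0.17 for the cholesterol list and 0.23 and 0.30 for the quiescence list.

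Some single genes outside these groups also lay higher. Steap4, a metalloreductase, was chosen after its values were seen because it had the highest difference and shared the smallest adjusted p. It had 96.0 and 82.2 at 28 and 30 h against 21.02 and 32.6 at 20 and 22 h, with 39.5 and 65.4 at 24 h (1.76 ± 0.26, limma adjusted p = 0.0590). Saa3, a serum amyloid gene also picked from its values, had 1100.0 and 828 in the late window against 284 and 393 in the earlier one, but 314 and 1203 in the 2 arrays at 24 h (1.52 ± 0.62, limma adjusted p = 0.509). Cp (ceruloplasmin), Hp (haptoglobin) and Lcn2 (lipocalin 2), again picked from their values, had limma adjusted p of 0.225, 0.387 and 0.628. Of these, Cp had 63.2 and 43.6 in the late window against 29.0 and 28.6 in the earlier one (0.86 ± 0.22). The growth factor Hgf had 86.3 and 75.9 in the late window against 51.2 and 53.9 in the earlier one (0.62 ± 0.12, limma adjusted p = 0.125). Among matrix proteases, Mmp19 had 285 and 320.3 in the late window against 189.7 and 211 in the earlier one, while Mmp9 had 133 and 153 against 247 and 219.9.

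G1 regulators had no common direction, with 6 of 18 higher and 5 lower in both late arrays (18.5% and 23.6% of all genes) and a median of 0.01. The Cdk inhibitor genes overlapped between windows: Cdkn1a (p21) had 1959 and 2345 at 28 and 30 h against 1946 and 2041 at 20 and 22 h, with a 95% interval of −0.21 to 0.42. Cdkn1b (p27) had 91.2 and 121 in the late window against 107 and 96.1 in the earlier one, with a 95% interval of −0.39 to 0.49. Cyclin D1 (Ccnd1) had 551 and 648 against 691 and 649 (−0.16, 95% interval −0.49 to 0.16). Mxd4, which competes with Myc for its partner Max, lay higher in both late arrays, with 171 and 139 in the late window against 96.1 and 122 in the earlier one (0.51 ± 0.18, limma adjusted p = 0.387). The lists of collagens and matrix (median −0.05 over 38 genes), p53 targets (0.08 over 16), heat shock proteins (−0.01 over 10), Atf4 targets (−0.01 over 23) and Nrf2 targets (−0.02 over 11) were near the median of all genes. The circadian clock list had a median of 0.08 over 13 genes, with Rora at 52.5 and 47.4 in the late window against 42.3 and 38.4 in the earlier one and Nr1d2 at 54.4 and 71.1 against 82.8 and 84.2.

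The late window was next set against unsynchronised MEF, to ask how far it had returned to the state of cells growing in serum. In this comparison limma called 797 genes higher (7.99%) and 623 lower (6.25%), and it shares the 28 and 30 h arrays with the comparison above. Leaving out 1 array left 726 calls without 28 h, 734 without 30 h, and 673 and 684 without the first and second unsynchronised array. Immediate early genes fell in 20 of 24 cases, with none higher and a median of −1.09. Dusp5 had 24.7 and 24.3 at 28 and 30 h against 235 and 200.4 in unsynchronised cells (−3.15 ± 0.20, limma adjusted p = 2.89e-06). Hbegf had 127 and 119 in the late window against 517 and 507 in unsynchronised cells (−2.06 ± 0.17, limma adjusted p = 3.41e-05). Egr1 was 2.24 log2 below unsynchronised cells (limma adjusted p = 0.0025) and Myc 1.19 (0.0036), with all late arrays under both unsynchronised arrays. SRF, MRTF and YAP targets were lower in 13 of 17 cases. Among them, Ccn2, a matricellular YAP target, had 465 and 546 in the late window against 1296 and 1556 in unsynchronised cells.

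Of the replication genes 21 of 47 were lower than in unsynchronised cells, as were 7 of 19 E2F and G1/S genes, 5 of 12 histone genes and 14 of 29 ribosome biogenesis genes, and none of these lists had a higher member. Mcm5 had 197 and 199.6 at 28 and 30 h against 387 and 375 in unsynchronised cells (−0.94 ± 0.16, limma adjusted p = 0.0021). Of the mitotic genes, those called lower were 6 of 19 in the mitotic entry list, 4 of 27 in the checkpoint list and 2 of 19 in the condensin and cohesin list. The cytokinesis list had 1 of 16, which is no more than the 6.25% of all genes called lower. The kinetochore and kinesin lists had 0, with medians of −0.28 and −0.31. For Cdk1 the late arrays had 262 and 258 against 325 and 360.2 in unsynchronised cells (limma adjusted p = 0.0678). Whether replication and mitotic genes differ in this was not tested.

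Higher genes included 15 of 19 of cholesterol synthesis and uptake (median 0.73), 7 of 19 of the quiescence list, with 1 lower, and 9 of 21 lysosomal genes. The share called higher over all genes was 7.99%. Nsdhl had 849 and 918 in the late window against 386 and 432 in unsynchronised cells (1.11 ± 0.14, limma adjusted p = 0.000303), and Sesn3 had 183 and 198 against 70.0 and 54.7 (1.62 ± 0.14, limma adjusted p = 3.48e-05). Of 11 fibroblast markers 4 were higher and none lower than in unsynchronised cells, with a median of 0.35. Among those higher, Lum, a matrix proteoglycan, and Pdgfra, a growth factor receptor, rose by 1.87 and 1.29 log2 in the late window relative to unsynchronised cells (limma adjusted p = 2.89e-06 and 0.000254). Between the late and the earlier window these genes differed by only 0.35 and 0.27 log2. Steap4 had 96.0 and 82.2 at 28 and 30 h against 12.0 and 11.2 in unsynchronised cells (2.94 ± 0.26, limma adjusted p = 3.56e-05). For the earlier window against the same unsynchronised arrays, limma called 251 genes higher (2.52%) and 128 lower (1.28%). There, higher genes took in 9 of 19 cholesterol genes, 4 of 21 lysosomal genes and 4 of 11 fibroblast markers (median 0.26). In the quiescence list 3 of 19 were higher and 1 lower. Lower genes took in 10 of 24 immediate early genes, 6 of 17 SRF, MRTF and YAP targets and 2 of 29 ribosome biogenesis genes. No replication, histone or mitotic gene of the lists was called. This last comparison was added after the data were seen, and its total came to between 81 and 175 when 1 array was left out (147 without 20 h, 81 without 22 h, 126 and 175 without the first and second unsynchronised array).

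**Figure D4:**
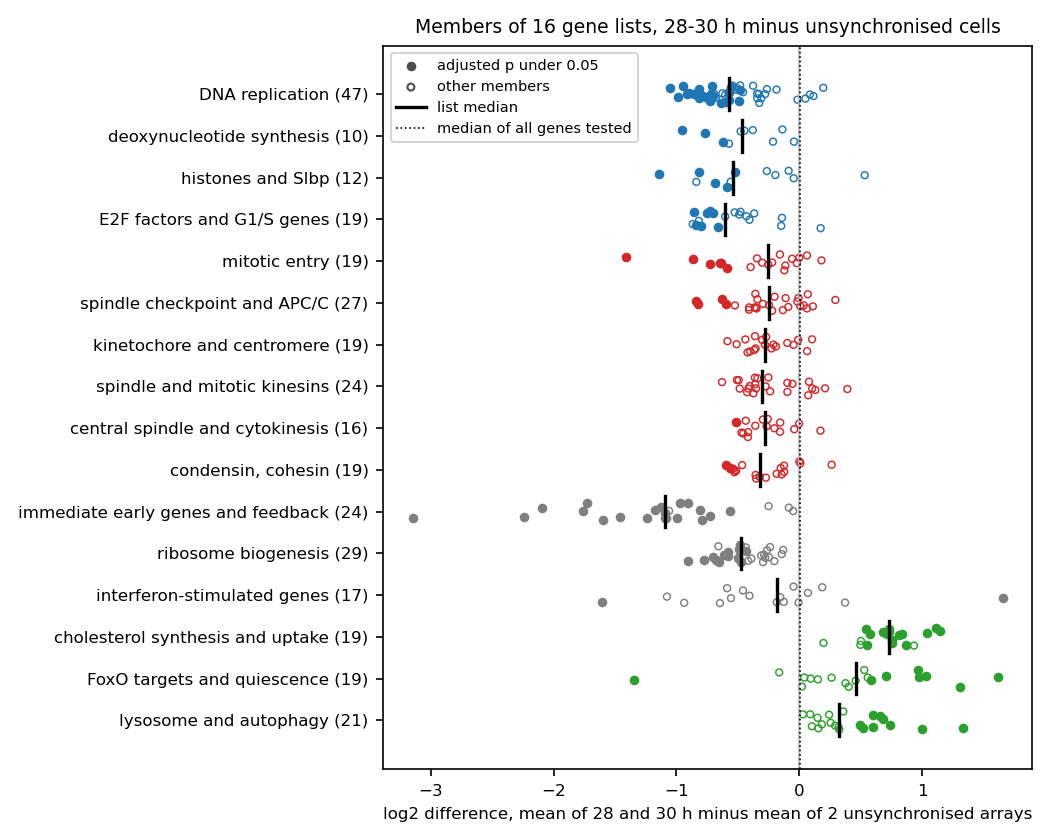
Log2 difference of the late window (mean of 28 and 30 h) minus unsynchronised cells (mean of 2 arrays) for each measured member of the same 16 lists. Filled points have a limma adjusted p under 0.05, thick bars are list medians and the dotted line is the median of all genes (0.01); immediate early genes have the lowest median (−1.09) and cholesterol genes the highest (0.73).

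Across the 9970 genes, the late difference was set beside comparisons that share no array with it, as a description in which genes are not independent replicates. It correlated at r = 0.53 (rho = 0.47) with 24 h against 18 h, a comparison added later, and 67.1% of genes had the same sign. The correlation was 0.30 (rho = 0.29) with 0 h against 24 h, with 60.3% of the same sign, and 0.15 (rho = 0.06) with 6-8 h against 18 h. With unsynchronised cells against 18 h it was −0.08 (rho = −0.11).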

How the data were processed

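RNA of MEF was hybridised to 24 Affymetrix Mouse Gene arrays, 22 of them in a course of 18 time points (14 with a single array) and 2 of unsynchronised cells. The authors normalized the arrays by RMA in the oligo package (versions not given in the sources used here) and deposited linear intensities, from 1.74 to 6335, in 2 identical tables, although the header names log2. The annotation of the platform gave a single gene for 23521 of the 41345 probe sets and several for 1820. A gene list that accompanies the study named 87 more, and 15917 stayed unnamed. Probe sets with a single gene and an intensity of 20 or more in at least 2 arrays were kept, the brightest for each gene. Log2 intensities of all arrays were fitted in limma 3.58.1 (R 4.3.3) with 17 group means, 7 residual and 5.53 prior degrees of freedom. Tests were two-sided and adjusted by Benjamini-Hochberg at 0.05. No source calls the 2 arrays of a group separate cultures: p-values cover only the variation among them, possibly technical. Precision is limited by the number of arrays. The fit was tested on simulated data (6 false calls). Alternatives covered the minimum, scaling, variance model, the 24 and 26 h arrays, and each array left out. Up to 4 genes of each list by size of difference and a panel of cell cycle genes were named, besides those said to be picked later. The members and lists were chosen with earlier results of these data known. Promoters came from RefSeq, with motifs searched in Python 3.11.15 (pandas 2.3.3, matplotlib 3.10.9).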

Additional observations from a re-analysis of the deposited data

How the results depend on the processing

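No paired analysis was possible because each window holds 1 array per hour and these arrays carry no replicate numbers. Between the windows, 0 genes were called in the main setting and under the other alternatives run, except the following. A minimum on the mean gave 4 (1 higher, 3 lower), a variance trend with robust moderation 7 (1 and 6), 1 mean per time point 2 lower, and adding the 24 h arrays to the earlier window 1 lower. Leaving out 1 array gave 0 to 4. Dusp5 and H2ac21 were called most often. Against unsynchronised cells, leaving out 1 array gave 673 to 734 of the 1420 genes. It gave 81 to 175 genes for 20-22 h against unsynchronised, 13 to 97 for 28-30 h against 18 h, and 2340 to 3971 for 20-22 h against 0 h. Likewise it gave 0 to 1 for 24 h against 20-22 h and 0 to 3 for 28-30 h against 24 h.

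Of the 16 lists plotted, none turned its sign under any alternative. With the 24 h arrays in the earlier window the medians were −0.35 for replication, −0.34 for deoxynucleotide synthesis, −0.51 for histones, −0.10 for ribosome biogenesis and 0.15 for quiescence genes. With the 26 h array in the late window, they were −0.47 for condensin and cohesin, −0.43 for histones, −0.26 for ribosome biogenesis and 0.15 for quiescence genes. Without a minimum intensity the histone median was −0.36. Leaving out 1 array gave −0.84 to −0.58 for histones, −0.67 to −0.42 for deoxynucleotide synthesis and −0.53 to −0.15 for immediate early genes. Of 79 genes followed, 5 changed sign. With the 26 h array added, Npas2 was at −0.0305 and Cdkn1b at −0.0761. Leaving out 1 array gave −1.60 to 0.18 for Egr1 (highest without 20 h), −0.066 to 0.53 for Ccnb2, −0.0248 to 0.23 for Cdkn1a (both lowest without 30 h), and −0.15 to 0.26 for Cdkn1b (−0.15 without 30 h, −0.0245 without 22 h). The cause was not tested. With 2 arrays a window, differences below about 0.34 log2 lie within the interval of a typical gene.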

Other observations

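Further groups were described by their counts. Of the mouse orthologues of the study's list of S/G2-M genes, which was drawn up in part on these arrays and is therefore not independent evidence, 218 of 296 with S phase timing in human fibroblasts were lower in both late arrays than in both earlier arrays (23.6% of all genes) and 6 were higher, with a median of −0.31. Of those with G2-M timing, 177 of 239 were lower and 4 higher, with a median of −0.33. Of 10 markers of adipocytes and cartilage, 7 were below 20 in all 4 arrays, namely Adipoq, Pparg, Cebpa, Plin1, Col2a1, Acan and Comp. The summed intensities of the 10 were 549 and 576 at 28 and 30 h against 449 and 432 at 20 and 22 h, and the 5 that passed the minimum over all arrays had a median of 0.34. Sox9, a cartilage transcription factor, had 287 and 300.2 in the late window against 218 and 201 in the earlier one. The complement regulator Cd55 had 435 and 371 in the late window against 281 and 293 in the earlier one, and rose by 2.11 log2 relative to unsynchronised cells (limma adjusted p = 0.000139).

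Other promoter motifs were searched on both strands. CCAAT was found in 83.3% of 18 windows of cholesterol genes, against 37.2% of all windows. It was also found in 83.3% of 12 histone windows and 75% of 16 clock windows. A sterol element, searched as a fixed string of letters, was found in 0 of the 18 cholesterol windows. That string was found in only 4 of all 10077 windows (0.0397%), so 0 of 18 does not show that these promoters lack sterol elements. The E-box CACGTG was found in 3 of 16 clock windows (18.8%), against 10.3% of all windows, and the D-box TTATGNAA in 1 of 16 (6.25%), against 1.86%. The E2F motif was found in 5.01% of windows of genes higher at 28-30 h than in unsynchronised cells, in 11.5% of windows of genes lower there, and in 8.58% of all windows.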
